A study of Mus musculus with 8 samples.

Results

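The 9 transcription regulators of craniofacial and otic mesenchyme described here were followed through the cells of the petrous temporal bone (PTB), the skull bone that houses the inner ear and, in mice, the pocket around the paraflocculus. They were Six2, Eya1, Twist1, Twist2, Prrx1, Prrx2, Foxc1, Foxc2 and Pou3f4, chosen by gene symbol. They are 9 of the 32285 genes of the deposited tables. Tbx1, the T-box gene whose dose differed between the mice, was set beside them.

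Nuclei came from P5.5 wild-type (WT) mice and from Tbx1+/- mice, which carry 1 working copy of Tbx1 in all their cells. Each library pooled the tissue of 5 mice. The PTB gave 2 WT and 2 Tbx1+/- libraries, 1 of each in each of 2 batches, and the paraflocculus and flocculus (PF/F) gave 4 more of the same design. The 4 PTB libraries held 5981 to 9977 annotated nuclei, 31076 in all, with 33515253 to 43752949 unique molecular identifiers (UMIs, each a captured RNA molecule).

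Six2 and Eya1 belong to families that act together, as DNA-binding homeodomain proteins and coactivators with phosphatase activity, in the otic placode, the branchial arches and the kidney. Twist proteins are basic helix-loop-helix factors that hold mesenchymal cells back from osteoblast differentiation, Prrx proteins are paired-type homeodomain factors of limb and face mesenchyme, and Foxc proteins are forkhead factors of skull, meningeal and vascular mesenchyme. Pou3f4 is a POU-domain factor of the otic mesenchyme around the inner ear, and its loss in humans causes an X-linked deafness. Tbx1 is needed for the pharyngeal arches, the inner ear and their mesenchyme.

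The sources put the nuclei in 15 types. These are 4 connective tissue types (CT1 to CT4), 6 chondrocyte progenitor types (CP1 to CP6), matured chondrocytes, a type with hypertrophic chondrocyte and osteoblast features, osteoblasts, matured osteoblasts with osteocytes, and osteoclasts. A level is given below as CPM, that is, a gene's UMIs per 1000000 UMIs of all nuclei of a type in 1 library. Types are clusters drawn from these same cells, so levels by type are a description and were not tested. Free RNA in the droplets was not removed from the deposited counts. Osteoclasts, which arise from blood and not from mesenchyme, served as the measure of it, although their nuclei were the deepest (a median of 4963 to 7105 UMIs in the 4 libraries) and held more muscle transcripts than the rest (836 CPM of 4 summed muscle genes, against 120 to 242 CPM in the other types). Barcodes outside the annotation were grouped by marker lists of other cell types, at 3 or more UMIs of the leading list. Globin transcripts were in every annotated type (means of 401 to 4092 CPM of 4 summed genes). Barcodes grouped by erythroid markers are therefore not shown to be blood cells. The groups with erythroid and with immune markers were both above osteoblasts in 6 of the 9 genes (Six2, Eya1, Twist2, Prrx2, Foxc1 and Foxc2). Eya1 was at 451 CPM in the erythroid and 335 in the immune group, Prrx2 at 38.2 and 31.3, Foxc1 at 56.6 and 44.8, and Foxc2 at 10.6 and 10.1. Neither group was cleaned of doublets, so neither gives a measure of free RNA alone. Whether a level in osteoblasts above that of osteoclasts is above free RNA was not settled for these genes.

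The labels held against their markers in part. Connective tissue markers (Col3a1, Vcan and Dcn together) were at 2328 CPM in the CTs and 1251 in the CPs, and cartilage markers (Col2a1, Sox9, Acan, Sox5 and Sox6) at 1623 and 2523 CPM. The cartilage list was also at 1996 CPM in osteoblasts, so it did not single out the CPs, whereas the hypertrophic markers were at 2355 CPM in their own class and at 295 to 924 CPM elsewhere. Matured chondrocytes had 48 to 254 nuclei a library, and their 4 summed globin genes spanned 905 to 13258 CPM, so their values were the least certain. CT1 had 118 to 1315 nuclei a library. Any 2 PTB libraries shared 11 to 26 barcodes among their annotated nuclei. Fewer cells of a type and less RNA per cell cannot be told apart in sums of this kind when types are pooled.

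The genes are spread over 7 chromosomes of GRCm38. Six2 lies at chr17:85684277-85688274 on the minus strand, Eya1 at chr1:14168954-14310235 (minus), Twist1 at chr12:33957671-33959829 (plus) and Twist2 at chr1:91801461-91848028 (plus). Prrx1 lies at chr1:163245119-163313710 (minus), Prrx2 at chr2:30834972-30881251 (plus), Foxc1 at chr13:31806633-31812476 (plus), Foxc2 at chr8:121116171-121118895 (plus) and Pou3f4 at chrX:110814280-110817207 (plus). Foxc2 is overlapped on its own strand by Gm20388, and Eya1, Twist2 and Prrx1 by predicted genes, so reads in the shared stretches can be lost or assigned to either gene.

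Promoter windows were at hand for 7 of the 9 genes (RefSeq, GRCm38.p6, 250 bases before to 50 after the transcription start). Those of Twist1, Twist2 and Pou3f4 are shown. The Twist paralogues had unlike patterns over the cell types, and Pou3f4 was the gene that separated the CPs from all other types within each library. Capitals mark CCAAT boxes (CCAAT, or ATTGG where it is on the other strand) and the TATA motif TATAAA, searched on both strands.

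Twist1, chr12:33957421-33957720, plus strand: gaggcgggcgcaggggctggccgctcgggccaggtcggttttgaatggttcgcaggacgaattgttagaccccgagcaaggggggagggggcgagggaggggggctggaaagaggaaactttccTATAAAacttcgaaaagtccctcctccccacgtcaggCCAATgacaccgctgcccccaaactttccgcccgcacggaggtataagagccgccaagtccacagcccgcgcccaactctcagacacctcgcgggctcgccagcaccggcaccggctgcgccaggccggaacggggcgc
Twist2, chr1:91801211-91801510, plus strand: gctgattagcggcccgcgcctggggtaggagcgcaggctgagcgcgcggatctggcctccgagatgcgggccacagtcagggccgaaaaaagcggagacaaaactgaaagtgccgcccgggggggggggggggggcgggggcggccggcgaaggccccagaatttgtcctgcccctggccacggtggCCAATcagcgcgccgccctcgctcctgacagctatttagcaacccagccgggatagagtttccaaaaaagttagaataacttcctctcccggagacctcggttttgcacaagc
Pou3f4, chrX:110814129-110814428, plus strand: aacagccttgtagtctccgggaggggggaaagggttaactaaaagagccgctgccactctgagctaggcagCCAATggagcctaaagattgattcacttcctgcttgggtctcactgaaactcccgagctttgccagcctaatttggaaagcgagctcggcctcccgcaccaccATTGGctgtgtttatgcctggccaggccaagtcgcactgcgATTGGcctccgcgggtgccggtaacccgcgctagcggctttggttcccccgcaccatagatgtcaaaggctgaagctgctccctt

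Both Twist windows held 1 CCAAT box and were alike in base composition (66.0% G and C in Twist1, 64.7% in Twist2), and the TATA motif was in that of Twist1 alone among the 7. The window of Pou3f4 held 3 CCAAT boxes at 57.7% G and C. A CCAAT box was present in 5 of the 7 windows and in 37.4% of all 32851 RefSeq windows of this length, and TATAAA was in 13.6% of them. The E-box CANNTG, the letters that Twist-type factors bind, was in 0 of the 7 windows and in 72.3% of all. The T-box core GGTGTGA was also in 0 of the 7 and in 3.98% of all. None of the motifs overlap each other in these windows, and a match or its absence describes these letters only.

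Six2 was the scarcest of the 9 by count in the PTB. Its level was 12.9 ± 3.01 CPM in CT3 (SD, n = 4 libraries), with 10.4 and 10.4 in the WT libraries of batches 1 and 2 and 16.4 and 14.5 in the Tbx1+/- libraries. CP3 (12.7 ± 2.32), CP2 (12.0 ± 2.73) and CT4 (11.5 ± 2.51) overlapped CT3, and osteoclasts were lowest at 2.60 ± 0.391. The whole of Six2 rested on 1146 UMIs in the annotated nuclei, and on 60 in CT3. At this depth the first 7 types of its order could not be separated.

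Eya1, the coactivator, was spread over all CTs and CPs. It was highest in CP2, at 1173 and 1328 CPM in the WT libraries and 1260 and 1269 CPM in the Tbx1+/- libraries, and CT3 followed at 1105 ± 73.7. The lowest CP type was CP6, at 612 ± 35.6, still above every osteoblast type in all 4 libraries. Osteoblasts held 199 ± 14.5 CPM of Eya1, osteoclasts 159 ± 35.9, and matured osteoblasts with osteocytes 123 ± 6.59, the lowest. Osteoblasts were above osteoclasts in each of the 4 libraries, but only just in the WT library of batch 2 (216 against 212 CPM), and the ranges over the libraries overlapped (185 to 216 and 133 to 212). Six2 and Eya1 had a Pearson r of 0.67 over the 15 types (log2(CPM + 1) of the mean level; rho = 0.72). The types share libraries and depth, and this applies to every correlation over types given here.

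Twist1 varied least over the types. Its level was 32.5 ± 6.88 CPM in CT1, where the Tbx1+/- library of batch 2 with 118 nuclei stood highest at 42.5 and the other 3 lay at 27.4 to 31.8. Osteoblasts held 29.7 ± 1.93 CPM, the hypertrophic type 28.8 ± 2.24 and CT4 28.2 ± 1.58, and 9 types in all overlapped CT1. Osteoclasts were lowest with 12.0 ± 4.01. Without that CT1 library osteoblasts came first, at 29.8 CPM.

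Twist2 had another distribution. CP4 held 40.2 and 43.5 CPM in the WT libraries and 38.9 and 32.2 in the Tbx1+/- libraries, and CP3 28.8, 38.6, 45.5 and 31.9 in the same order. CT1 followed with 28.2, 29.9, 35.7 and 34.0. These 3 types overlapped each other and stood above the 12 others in mean. CP1, the progenitor type with least Twist2, held 5.63 ± 0.475 CPM, and osteoblasts (2.67 ± 0.639), the hypertrophic type (2.34 ± 1.5) and matured osteoblasts (1.75 ± 1.11) were at the osteoclast level of 2.76 ± 1.82. Twist2 in these 3 types was thus not distinguished from free RNA as measured in osteoclasts, whereas Twist1 in osteoblasts was above osteoclasts in all 4 libraries. In barcodes outside the annotation, however, Twist1 was at 24.7 CPM in those with erythroid markers (19.4 to 27.9 over the libraries). It was at 19.1 CPM in those with immune markers (13.1 to 28.1). Neither group is shown to hold blood cells only, so the margin of Twist1 in osteoblasts over free RNA rests on osteoclasts alone. Over the 15 types the r of Twist1 with Twist2 was 0.03 (rho = -0.09).

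Prrx1 marked CT1. There it was at 1120 and 1457 CPM in the WT libraries and 1248 and 1221 CPM in the Tbx1+/- libraries, and none of the other 14 types overlapped it. CT3 (631 ± 25.5), CT4 (508 ± 16.4) and CP1 (478 ± 38.9) came next. CT2, at 254 ± 34.9, had about the level of CP3 (254 ± 36.0), so the 4 connective tissue types were unlike each other in Prrx1. Osteoblasts kept 430 ± 30.3 CPM and the hypertrophic type 427 ± 29.3, and osteoclasts had 99.0 ± 24.5.

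Prrx2, its paralogue, was also highest in CT1 (91.2 and 113 CPM in WT, 88.6 and 132 in Tbx1+/-), with CP1 (72.2, 97.6, 72.5 and 102) overlapping it. In both types the batch 2 libraries were above the batch 1 libraries in each genotype. Osteoblasts had 26.2 ± 1.3 CPM and osteoclasts 14.8 ± 1.98. The r of Prrx1 with Prrx2 was 0.75 over the 15 types and 0.96 over the 6 CP types, in which both were highest in CP1 and lowest in CP5.

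**Figure D1:**
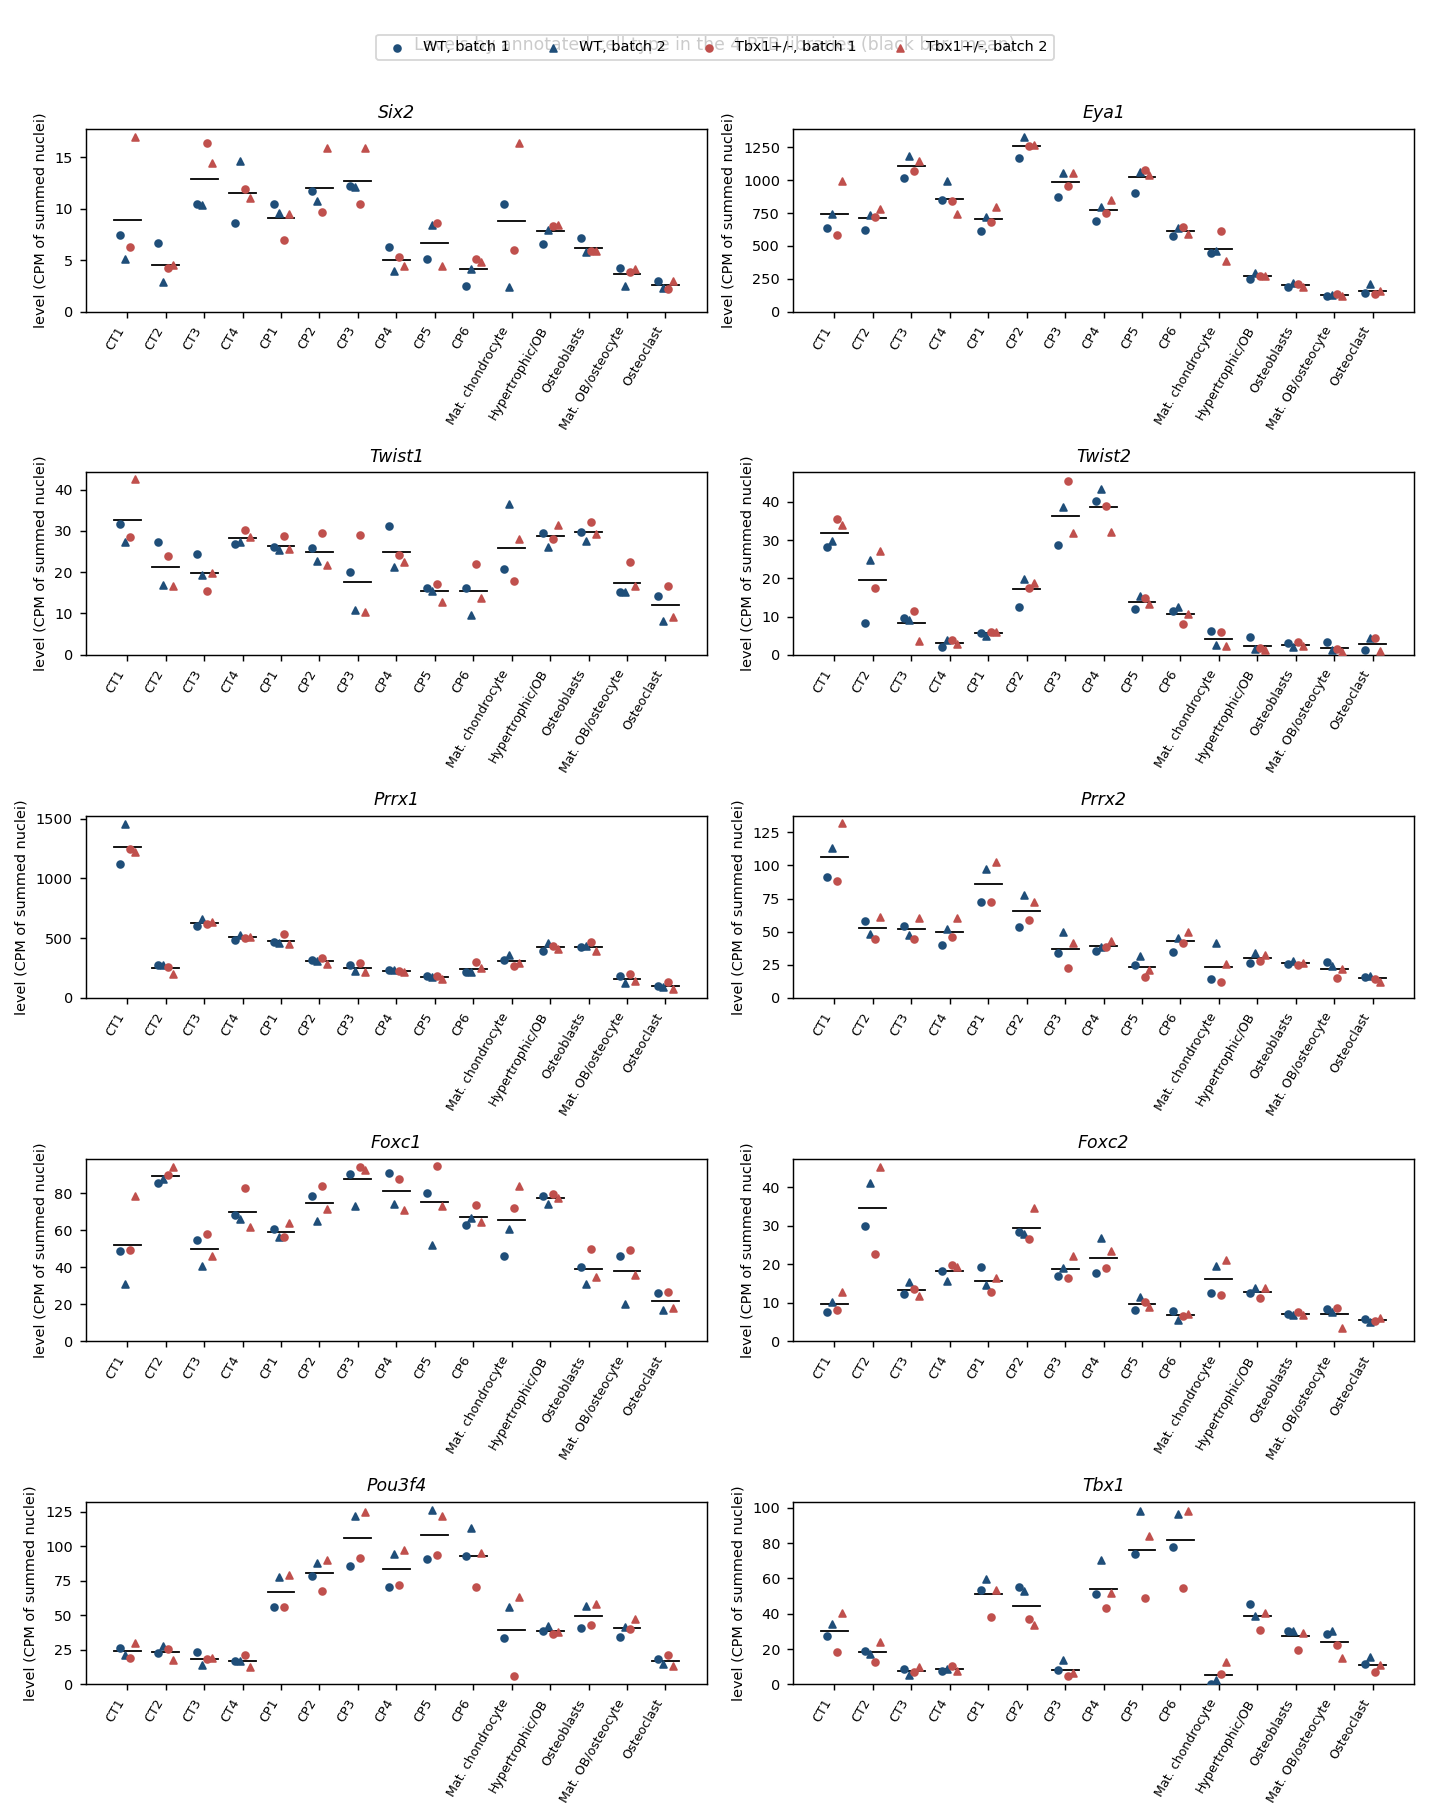
Level of each gene and of Tbx1 (CPM of summed nuclei, linear axes from 0) in the 15 annotated PTB types. Each point is 1 library, blue for WT and red for Tbx1+/-, with circles for batch 1 and triangles for batch 2, and the black bar is the mean of the 4 libraries. Prrx1 stands apart in CT1 (mean 1262 CPM), and Twist2 is at or near the osteoclast level in the osteoblast types. Within each library Pou3f4 is higher in each of the 6 CP types than in any other type.

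Foxc1 and Foxc2 shared their highest type, CT2. Foxc1 was at 85.4 and 87.7 CPM there in WT and 90.1 and 94.3 in Tbx1+/-, and CP3 (87.6 ± 9.74), CP4 (81.1 ± 9.87) and CP5 (75.2 ± 17.7) overlapped it. The hypertrophic type held nearly as much (77.6 ± 2.37), osteoblasts had 39.0 ± 8.25 and osteoclasts 21.9 ± 5.25. Foxc2 was at 29.9 and 41.0 CPM in WT and 22.5 and 45.3 in Tbx1+/- in CT2, so that batch 2 stood above batch 1 in both genotypes. CP2 followed with 29.3 ± 3.64 and CP4 with 21.7 ± 4.19. CT1, the type of Prrx1, had 9.65 ± 2.35 CPM of Foxc2, and osteoblasts had 7.04 ± 0.369 against 5.48 ± 0.454 in osteoclasts. The r of Foxc1 with Foxc2 over the types was 0.75. Endothelial markers (Flt1, Pecam1 and Cdh5 together) also peaked in CT2, at 210 CPM (180 to 247 over the libraries) against means of 24.1 to 86.9 in the other types, and their part in the levels of Foxc1 and Foxc2 there was not tested.

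Pou3f4 set the progenitors apart from all other types within each library. Its mean levels in the CPs ran from 67.2 ± 13 CPM in CP1 through 80.9 ± 10.2 in CP2 and 83.6 ± 14.5 in CP4 to 93.0 ± 17.4 in CP6, 106 ± 20.2 in CP3 and 108 ± 18.3 in CP5. Osteoblasts had 49.5 ± 9.10 CPM, and the 4 CT types (16.9 to 24) were close to osteoclasts (17.0 ± 3.52). Over all 4 libraries the range of CP1 (55.8 to 79.1) overlapped those of osteoblasts (40.7 to 58.3) and matured chondrocytes (5.99 to 63.1). In each of the 4 libraries the lowest CP type was above the highest of the 9 other types. The pairs of values were 55.8 against 40.7 CPM and 77.7 against 56.4 in the WT libraries, and 56.1 against 42.7 and 79.1 against 63.1 in the Tbx1+/- libraries. None of the other 8 genes did this, and 8 of 23250 genes with at least 10 UMIs did (0.0344%).

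The 8 genes that separated the CPs in this way were Pou3f4, Gm44593, Pantr1, Pantr2, Unc5d, Wasf3, Gm20646 and Gm40999, which were named after their values were seen. Gm44593 is the direct neighbour of Pou3f4. It is annotated on the opposite strand at chrX:110634586-110812324, so that its start lies 1956 bases from that of Pou3f4, and it reached 2211 CPM in CP5. Pantr1 and Pantr2 flank another POU class III gene, Pou3f3 (chr1:42695768-42703176), at 926 and 3885 bases. Pantr1 reached 253 CPM in CP6 and Pantr2 127 CPM in CP5. Pou3f3 was itself highest in CP6 (139 CPM), but its lowest CP type in mean (67.7) and its highest other type (53.3) were not apart in all libraries. Pou3f1 (2.96 ± 1.05 CPM over all annotated nuclei) and Pou3f2 (1.97 ± 0.541) were scarce.

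Markers of other cells moved with the Pou3f4 pattern in part. The neuron markers Rbfox3, Snap25 and Syt1 summed to 1660 CPM in CP6, 417 in CP3, 249 in CP4 and 184 in CP5, against 62.6 to 77.5 in CP2 and CP1 and 19.8 to 71.6 in all other types. Syt1 gave 1625 of the 1660 CPM. Snap25 was also highest in CP6 (30.4 CPM, against 5.98 to 19.7 in the other types), and Rbfox3 was at 4.64 CPM there and highest in CP5 (12.2). Their part in the level of Pou3f4 was not tested. Among the barcodes outside the annotation, those with most neuron marker UMIs had 25.3 CPM of Pou3f4, less than any CP type. The other 7 groups of such barcodes held 28.5 to 48.5 CPM. The group with erythroid markers was at 48.5 CPM and the immune group at 45.3 (21.3 to 73.8 over the libraries). These were near the level in osteoblasts and above that in osteoclasts, and doublets were not removed from these groups.

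**Figure D2:**
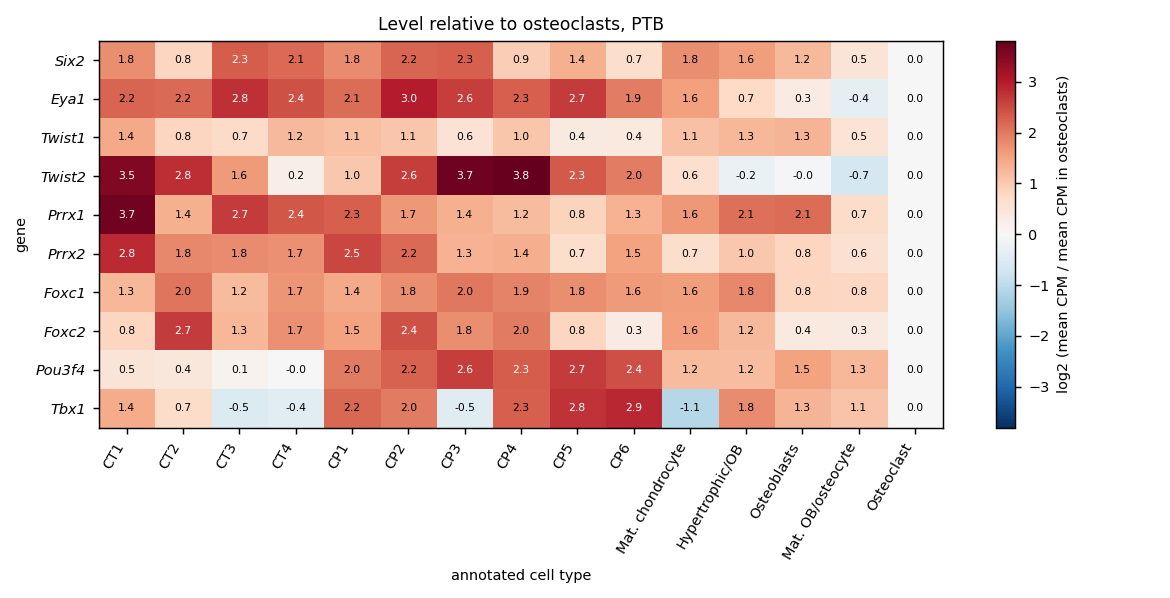
Mean level of each gene in each type relative to osteoclasts, as log2 of the ratio of mean CPM over the 4 PTB libraries (red above, blue below, number in each cell). The row of Twist2 is near 0 or below in the 3 osteoblast and hypertrophic types, the row of Pou3f4 is near 0 in the 4 CT types, and the row of Prrx1 peaks in CT1, at 12.7 times the osteoclast level.

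Levels of the 9 genes and Tbx1 were also compared per kilobase of gene, since nuclear RNA holds introns and Eya1 spans 141 kb against 2.16 kb for Twist1. Over all annotated nuclei Pou3f4 had 18.9 CPM per kb, Twist1 11.3 and Foxc1 10.3. Prrx1 (5.87), Foxc2 (5.18), Eya1 (4.13) and Tbx1 (3.62) formed the middle, and Six2 (1.88), Prrx2 (0.949) and Twist2 (0.251) were lowest. Eya1 and Prrx1, first by CPM, were therefore not first per length. Whether UMIs scale with gene length in these libraries was not tested, so the order per kb is a description only.

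Shares of nuclei with a UMI were set against those of osteoclasts after each nucleus was thinned to 2000 UMIs (30022 of 31076 nuclei had that many, and 1054 were left out). Before thinning, the types compared had median depths of 3328 to 5369 UMIs over the libraries, against the 4963 to 7105 of osteoclasts. Prrx1 was found in 77.3% of CT1 nuclei (95% interval 75.6 to 79.0, exact binomial) against 13.9% of osteoclasts (12.2 to 15.8), and the unthinned shares were 85.8% and 30.3%. Eya1 was found in 84.2% of CP2 nuclei (83.0 to 85.4) against 18.6% of osteoclasts (16.7 to 20.6), or 93.5% and 36.4% unthinned. Pou3f4 was in 17.8% of CP5 nuclei (15.7 to 20.0) against 2.96% (2.16 to 3.94), or 39.1% and 9.49% unthinned. Twist2 was in 8.06% of CP4 nuclei (6.85 to 9.40) against 0.526% (0.227 to 1.03), or 16.3% and 1.48% unthinned. For Six2 in CT3 the share was 2.93% (1.90 to 4.29) against 0.657% (0.316 to 1.20), or 6.64% and 1.73% unthinned. These intervals cover counting error only.

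By highest type, 6 of the 9 genes had their peak in a CT (Six2, Twist1, Prrx1, Prrx2, Foxc1 and Foxc2), 3 in a CP (Eya1, Twist2 and Pou3f4) and 0 in matured chondrocytes or in an osteoblast or hypertrophic type. How many of all genes peak in a CT or a CP type, or without overlap, was not computed. The counts are thus not shown to be particular to these genes. Prrx1 was the single gene of the 9 whose peak no other type overlapped. The overlap was with 9 types for Twist1, 6 for Six2, 3 each for Foxc1 and Pou3f4, 2 each for Twist2 and Foxc2 and 1 each for Eya1 and Prrx2, and for 7 of these 8, all but Pou3f4, a CT peak was overlapped by a CP type or the reverse. Without the WT library of batch 2 the peak of Foxc1 moved to CP3, and without the Tbx1+/- library of batch 1 that of Six2 moved to CP3, so the split of peaks between CTs and CPs is not settled by 4 libraries.

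Set beside Tbx1, the regulators were mostly unlike it. Tbx1 was at 81.8 ± 20.2 CPM in CP6 and 76.3 ± 20.8 in CP5, and at 8.10 ± 4.06 in CP3 and 7.74 ± 1.97 in CT3, below its level in osteoclasts (11.2 ± 3.50). Over the 15 types its r with Pou3f4 was 0.60 (rho = 0.60). Within the 6 CP types this r was -0.28, where CP3 combined 106 CPM of Pou3f4 with 8.10 of Tbx1, and without CP3 it was 0.75 over the other 5. For the other 8 genes the r with Tbx1 lay between -0.28 (Six2) and 0.21 (Twist2, and also Foxc1). CP3, poor in Tbx1, was the second-highest type of 4 of the 9 genes, Pou3f4, Twist2, Foxc1 and Six2. CT1 held the most Prrx1 and Prrx2 and had 30.1 ± 9.53 CPM of Tbx1, the highest of the CTs.

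**Figure D3:**
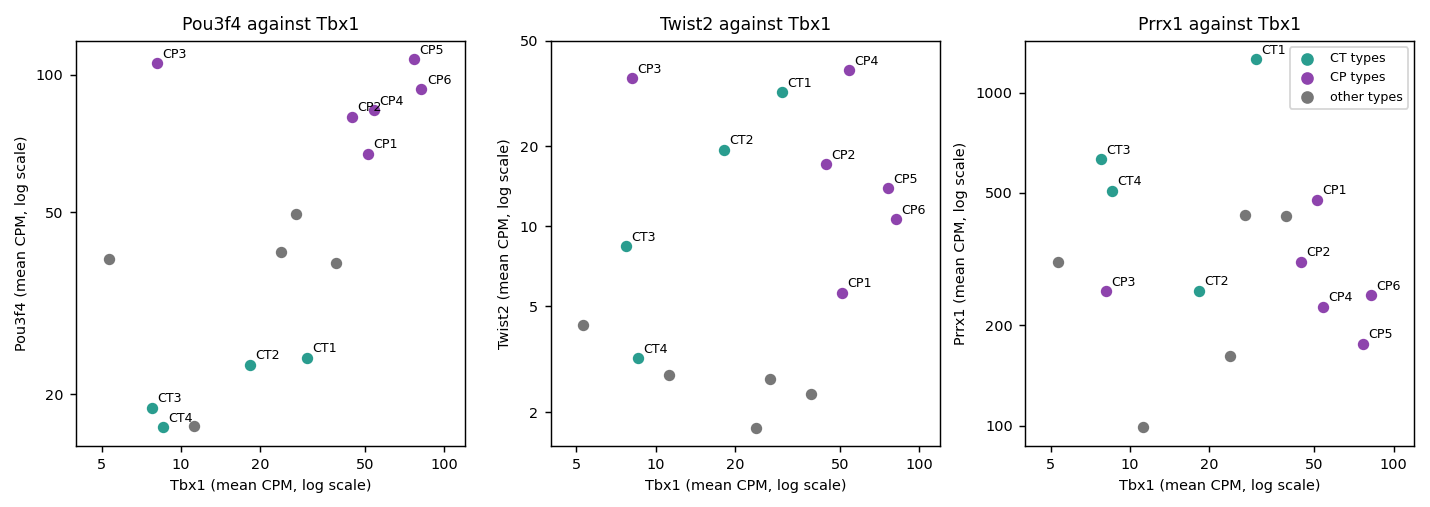
Mean CPM of Pou3f4, Twist2 and Prrx1 (vertical, log scale) against mean CPM of Tbx1 (horizontal, log scale) in the 15 PTB types, each point 1 type averaged over 4 libraries. For Pou3f4 the CP types lie at the upper right except CP3 at the upper left, with 106 CPM of Pou3f4 and 8.10 of Tbx1.

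The genes most like each regulator over the 15 types, among 13126 genes with at least 10 CPM in a type, were different for each. Gm44593 (r = 0.93), Pantr1 (0.91) and Trim7 (0.88) were closest to Pou3f4. For Prrx1 they were Mecom (0.92), Mnat1 (0.90) and Meis2 (0.89), and for Prrx2 Kifap3 (0.91), Zfp521 (0.86) and Igf1os (0.86). Rragb (0.96), Aff3 (0.95) and Gria3 (0.94) were closest to Eya1. Twist2 was followed by Srsf12 (0.95), Prrg3 (0.95) and Trpc5 (0.95), and Foxc1 by Atn1 (0.94), Mboat2 (0.91) and Hnrnpa2b1 (0.91). Foxc2 had Arhgef5 (0.84), Alcam (0.83) and Mocs1 (0.83), and Six2 had P4ha3 (0.90), Gm43728 (0.89) and CJ186046Rik (0.89). Twist1 was followed by Cep76 (0.87), BC034090 (0.86) and Slc22a21 (0.85). In single libraries some of these r were lower, from 0.18 to 0.87 for Cep76, 0.30 to 0.79 for Mocs1, 0.43 to 0.75 for Trim7, 0.47 to 0.71 for Gm43728 and 0.59 to 0.93 for Rragb, whereas Mecom (0.90 to 0.93) and Aff3 (0.92 to 0.96) varied little.

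The partners of the 9 genes in their pathways gave further context. Among relatives and partners of Eya1, the coactivator Eya4 was at 1054 ± 128 CPM over all annotated nuclei and peaked in osteoblasts (2620 CPM), where Eya1 was low. The corepressor Dach1 (157 ± 19.4) peaked in CP6 at 1761 CPM and Eya2 (144 ± 16.5) in CT2 at 740.4 CPM. Of the 9 Twist partners and antagonists, the E proteins Tcf4 (820.5 ± 22.5 CPM) and Tcf12 (768 ± 24.6) were present in all types, and Id3, an inhibitor of such factors, was at 121 ± 15.8 CPM. Hand1 and Hand2, relatives of Twist in the arches and heart, had 3 and 28 UMIs in all, and were named after their values were seen.

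The 9 craniofacial homeobox genes were low over all annotated nuclei, from 0.0717 to 3.44 CPM, and 8 of the 9 had their peak in a CT type. Alx4 (3.44 ± 1.13) reached 17.6 CPM in CT3, Lhx8 (2.37 ± 1.75) 27.0 CPM in CT1 and Barx1 (1.53 ± 1.24) 8.44 CPM in CT1. Among 8 mesenchymal forkhead genes, Foxp2 (1099 ± 88.1 CPM) peaked in CT3 at 2835, and Foxp1 (568 ± 26.8) and Foxd1 (38.3 ± 2.75) peaked in CT2 at 2020 and 220.2 CPM, the type of Foxc1 and Foxc2. Of 7 otic mesenchyme and fibrocyte genes, 6 peaked in a CP type. They included Otor (251 ± 84.3), at 1529 CPM in CP5, and Tbx18 (191 ± 12.6), at 749 CPM in CP3. Tbx15 (115 ± 10.4) peaked in CT3 at 489 CPM. The share of all genes with a peak in a CT or a CP type was not computed for these lists either.

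Tbx1 haploinsufficiency was then compared with WT on the sums per library. Tbx1 itself, as the check of the labels, was at 38.9 and 39.4 CPM in the WT libraries and 26.3 and 35.7 in the Tbx1+/- libraries over all annotated nuclei. Both Tbx1+/- libraries were lower, by a log2 change of -0.34 ± 0.17 (SE, edgeR quasi-likelihood test, adjusted p = 1.00), which did not pass the test. The log2 change was -0.14 without the Tbx1+/- library of batch 1 and -0.57 without that of batch 2. With the batch as a block it was -0.36 ± 0.13 (edgeR, unadjusted p = 0.027, adjusted p = 0.944). In the CPs the blocked fit gave -0.35 ± 0.11 (edgeR, unadjusted p = 0.011, adjusted p = 0.9996). By type, Tbx1 in batch 2 was higher in the Tbx1+/- library than in WT in 6 of the 15 types. Among them were the hypertrophic type (40.4 against 38.7 CPM), CT1 (40.4 against 34.4, on 19 and 54 UMIs) and CT2 (24.1 against 17.0, on 32 and 24 UMIs). Counts this small do not settle whether the decrease was absent in a type. Whether the counted reads fall within the deleted part of the gene was not checked.

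Of the 9 genes, 0 were called in any comparison (adjusted p under 0.05 and a change above 1.5-fold). The background was also 0% of 20250 genes tested over all annotated nuclei, of 15889 in the CTs, of 17894 in the CPs and of 15573 in osteoblasts, and 0 genes were called in the 4 smaller classes. At an unadjusted p under 0.05, edgeR had 217, 142, 150 and 192 genes in these first 4 comparisons, and 196, 273, 239 and 288 in matured chondrocytes, the hypertrophic type, matured osteoblasts and osteoclasts, and none of the 9 was among them in any. DESeq2 called 0 genes in each as well, with 115, 59, 34, 36, 32, 42, 21 and 65 at an unadjusted p under 0.05. With the batch as a block, edgeR called 24 genes in the CTs, 18 in matured chondrocytes, 4 in matured osteoblasts and 3 in osteoclasts, again with 0 of the 9 among them. In that fit 1043, 954, 668 and 449 genes had an unadjusted p under 0.05 in the first 4 comparisons, with 0 of the 9 among them. The main fit, without a batch term, leaves differences between batches in its spread. The design can show only large changes, and an exact permutation test of 2 libraries against 2 cannot go below p = 0.33.

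In the 4 larger comparisons the differences were small. Over all annotated nuclei, the CTs, the CPs and osteoblasts, no log2 change of the 9 genes was larger than 0.25 (Foxc1 in the CTs). The medians were -0.05, 0.01, 0.03 and 0.04, beside medians of 0.00, 0.01, 0.00 and 0.01 over all genes tested. In matured chondrocytes 6 of the 9 passed the filter on low counts, in the hypertrophic type 8, in matured osteoblasts 7 and in osteoclasts 8. The changes were larger there, up to 0.62 ± 0.32 for Foxc1 in matured chondrocytes and -0.50 ± 0.34 for Prrx2 and -0.46 ± 0.59 for Foxc2 in matured osteoblasts. None of the 41 partner genes tested over all annotated nuclei was called, nor any of 36 in the CTs, 37 in the CPs and 31 in osteoblasts.

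Foxc1 was the gene with the steadiest direction. In the CTs it was at 57.2 and 55.0 CPM in WT and 63.4 and 70.2 in Tbx1+/-, and the groups did not overlap (log2 change 0.25 ± 0.14, edgeR adjusted p = 1.00). In the CPs the values were 76.8 and 64.7 CPM against 79.1 and 71.7, and in osteoblasts 40.3 and 30.9 against 49.9 and 34.7, so that the genotypes overlapped and the batches differed more. Within each batch Foxc1 was higher in Tbx1+/- in all 7 classes. By type it was higher in both batches in 11 of 15, lower in both in CP4 (91.3 to 87.7 and 74.2 to 71.3 CPM), and mixed in the other 3, CT4, CP1 and CP6. The differences in log2 CPM were 0.15 and 0.35 in the CTs for batches 1 and 2, 0.04 and 0.15 in the CPs, 0.31 and 0.17 in osteoblasts and 0.05 and 0.12 in osteoclasts. They were 0.02 and 0.07 in the hypertrophic type, 0.65 and 0.47 in matured chondrocytes, and 0.10 and 0.82 in matured osteoblasts. The values in matured chondrocytes stood on 22 and 25 UMIs in WT and 12 and 72 in Tbx1+/-. Those in matured osteoblasts stood on 55 and 16 UMIs in WT and 64 and 43 in Tbx1+/-.

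Of 11938 genes with at least 10 UMIs in each class, 0.251% were higher in both batches in all 7 classes and 0.126% were lower, and Foxc1 was the single one of 8 members that could be read in this way. The 7 classes come from the same 4 libraries and share their free RNA, and osteoclasts moved in the same direction. The WT library of batch 2 was the lowest in Foxc1 in 6 of the 7 classes, and without it the log2 change over all annotated nuclei was -0.03 in place of 0.11.

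**Figure D4:**
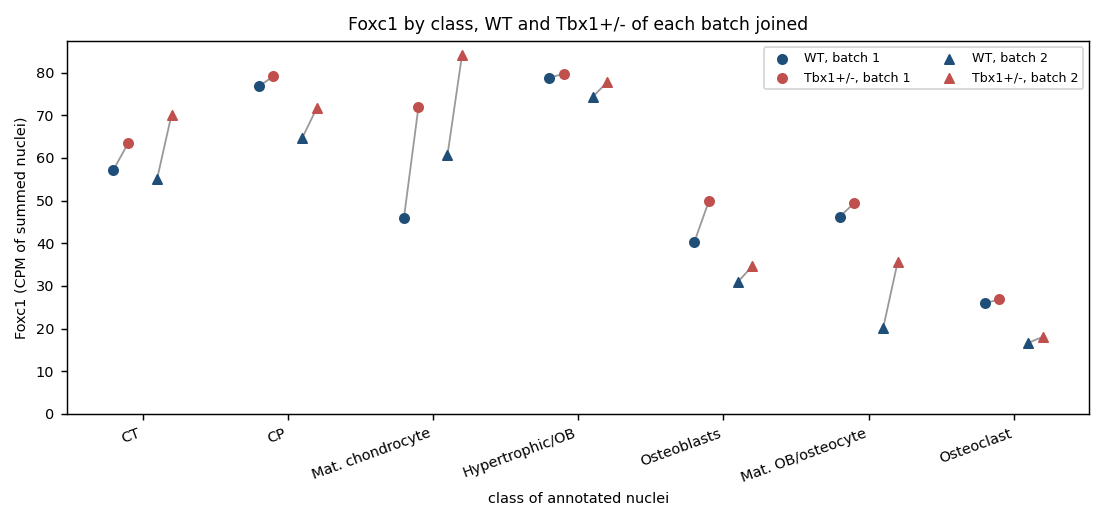
Foxc1 level (CPM of summed nuclei, axis from 0) in 7 classes of annotated PTB nuclei, with WT (blue) and Tbx1+/- (red) of the same batch joined by a line (circles batch 1, triangles batch 2). Each line goes up from WT to Tbx1+/-, least in the hypertrophic type, by 0.02 and 0.07 in log2 CPM.

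Six2 in the CTs also had groups that did not overlap, at 7.87 and 7.70 CPM in WT and 8.06 and 10.5 in Tbx1+/- (log2 change 0.24 ± 0.27, and 0.033 without the Tbx1+/- library of batch 2). These values stood on 66, 42, 53 and 42 UMIs in the same order. Foxc1 and Six2 were thus 2 of 9 genes with both Tbx1+/- libraries above both WT libraries in the CTs, where 11.4% of all genes tested did the same, and 0 were below (11.5% of all). Over all annotated nuclei 0 of the 9 were above (10.8% of all) and 0 below (12.4%). In the CPs 0 were above (9.87%) and 0 below (11.2%), and in osteoblasts 0 were above (13.7%) and 0 below (10.5%). In the smaller classes the genes that did not overlap were Foxc1 above (13.4% of all) and Prrx1 below (15.6%) in matured chondrocytes, Six2 above (13.9%) and Pou3f4 below (12.3%) in the hypertrophic type, Twist1 above (16.7%) and Prrx2 below (12.2%) in matured osteoblasts, and Prrx2 below (12.4%) in osteoclasts, where 0 were above (14.7%). With 0 or 1 gene of 6 to 8 tested in each direction, these shares were near those of all genes.

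Prrx1 in the CTs differed together with the share of CT1, and the part of that share in the difference was not tested. It was at 859 and 766 CPM in WT and 849 and 529 in Tbx1+/- (log2 change -0.24 ± 0.26), and the Tbx1+/- library of batch 2 was far below the others. In that library CT1 made up 15.2% of the CT nuclei, against 31.5% in the WT library of its batch and 64.5% and 56.5% in the WT and Tbx1+/- libraries of batch 1. With the CT types weighted alike in every library, Prrx1 was at 737 and 899 CPM in WT and 792 and 774 in Tbx1+/-, a log2 change of -0.06. The same weighting, which was chosen after the data were seen, gave Foxc1 a log2 change of 0.31 and Twist2 0.26 in the CTs. For Six2 it gave 0.48, from 8.02 and 7.11 CPM in WT and 8.65 and 12.8 in Tbx1+/-, where the highest value gave full weight to 8 UMIs in the 118 CT1 nuclei of the Tbx1+/- library of batch 2. Tbx1 in the CTs went from -0.31 to -0.09, and in the CPs from -0.34 to -0.40.

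Each of the other genes changed direction between batches or between classes. Twist2 in the CTs was at 19.9 and 18.2 CPM in WT and 24.3 and 14.8 in Tbx1+/-, higher by 0.29 in log2 CPM in batch 1 and lower by a difference of -0.30 in batch 2. In the CPs it did the same, at 17.2 and 21.8 against 19.9 and 17.9 CPM. Eya1 in the CPs was at 837 and 979 CPM in WT and 919 and 973 in Tbx1+/- (log2 change 0.07 ± 0.12). Prrx2 in the CPs was at 46.7 and 63.4 against 48.4 and 62.0 (0.01 ± 0.19), and it was mixed between batches in the CTs and the hypertrophic type too. Elsewhere Prrx2 was lower in Tbx1+/- in both batches. The differences in log2 CPM were -0.14 and -0.10 over all annotated nuclei, where 26% of all genes were lower in both. They were -0.06 and -0.08 in osteoblasts, -0.29 and -0.68 in matured chondrocytes, -0.80 and -0.15 in matured osteoblasts, and -0.15 and -0.45 in osteoclasts. Foxc2 in the CTs was at 12.6 and 20.5 CPM in WT and 13.4 and 25.1 in Tbx1+/- (0.21 ± 0.39), higher in both batches. In the CPs its differences in log2 CPM were -0.12 in batch 1 and 0.13 in batch 2. Twist1 in osteoblasts was at 29.7 and 27.5 against 32.2 and 29.3 CPM (0.09 ± 0.14), higher in both batches. In the CTs its differences in log2 CPM were -0.20 in batch 1 and 0.08 in batch 2.

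In the CPs Pou3f4 was nearly equal between genotypes and differed by batch. It was at 76.2 and 98.2 CPM in WT and 71.1 and 97 in Tbx1+/- (log2 change -0.04 ± 0.19), and both batch 2 libraries stood above both batch 1 libraries. The same order held in osteoblasts (40.7 and 56.4 in WT, 42.7 and 58.3 in Tbx1+/-), but it was the reverse in the CTs (24.2 and 20.0 in WT, 20.7 and 18.0 in Tbx1+/-) and in osteoclasts (18.4 and 14.7, and 21.3 and 13.6). Pou3f4 is X-linked. The study used mice of both sexes, but the sex ratio of each pool is not given in the sources used here. Xist was at 520 and 954 CPM in WT and 668 and 1227 in Tbx1+/-. The Y-linked Ddx3y was at 70.3 and 49.1 CPM against 61.0 and 37.9. Both genes thus differed by batch, and in each batch Xist was higher and Ddx3y lower in Tbx1+/-. Their log2 changes over all annotated nuclei were 0.37 ± 0.39 and -0.28 ± 0.28. Their part in the level of Pou3f4 or in the genotype comparisons was not tested.

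**Figure D5:**
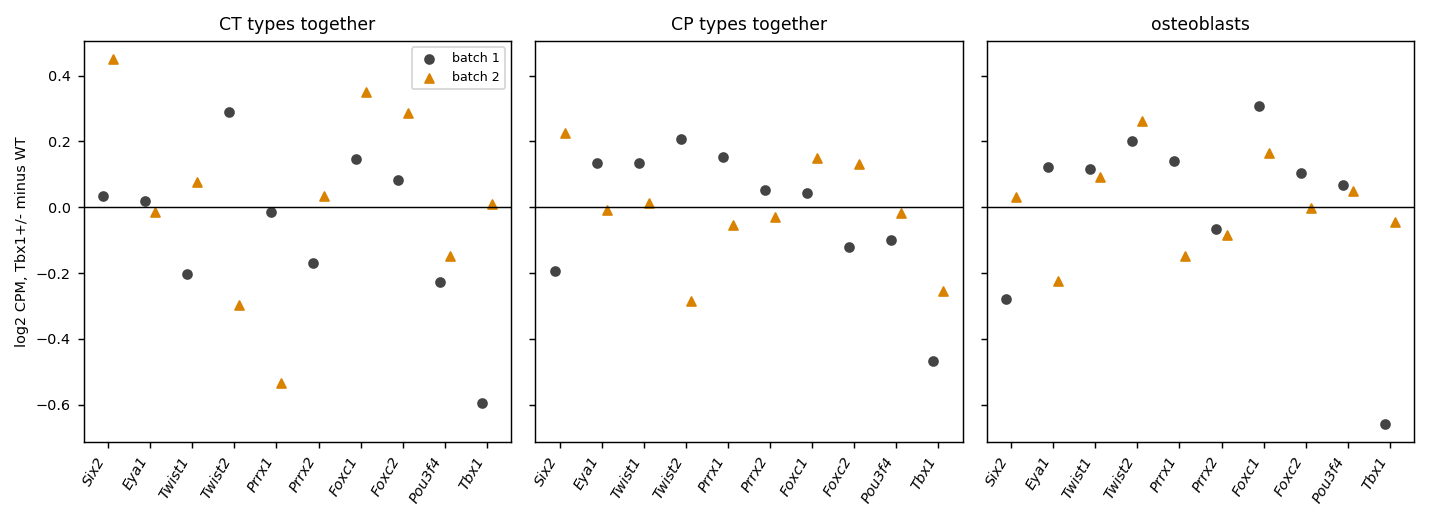
Difference in log2 CPM, Tbx1+/- minus WT, within batch 1 (grey circles) and batch 2 (orange triangles) for the 9 genes and Tbx1 in the CTs, the CPs and osteoblasts. Foxc1 is above 0 in both batches in each panel, Prrx1 in the CTs is at -0.02 and -0.54, and Tbx1 is below 0 in both batches in the CPs.

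Outside the annotation of the PTB, 24326 barcodes with at least 1000 detected genes were grouped by their leading marker list. Eya1 was highest in those with neuron markers, at 631 to 821 CPM over the 4 libraries in 2518 barcodes, against group values of 285 to 510 CPM elsewhere. Prrx1 ran from 100 CPM in the neuron group to 274 CPM in the erythroid group. Twist2 was at 4.09 to 7.61 CPM in the 8 groups, below its level in CP2 (17.2 ± 3.27). These Twist2 levels were above that of osteoclasts (2.76 ± 1.82), and CP1 (5.63 ± 0.475) lay within them. Tbx1 was highest in the epithelial group, at 121 CPM in 583 barcodes. These groups were not cleaned of doublets and hold the same free RNA.

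In the PF/F, with 48237 annotated nuclei, the genes other than Six2 and Pou3f4 were highest in the meningeal nuclei, though not confined to them. In 706 meningeal nuclei Eya1 was at 432 CPM (95% exact Poisson interval 407 to 458, 4 libraries together), Prrx1 at 220 (203 to 239), Foxc1 at 50.3 (42.0 to 59.6) and Prrx2 at 37.6 (30.5 to 45.8). Foxc2 (11.5), Twist1 (10.4) and Twist2 (7.29) were lower. In all PF/F nuclei together these genes were at 59.9, 28.9, 2.48, 3.38, 0.247, 0.333 and 0.419 CPM. Tbx1 had 2 UMIs in the meningeal nuclei and 29.5 CPM (18.0 to 45.6) in 183 endothelial nuclei, on 20 UMIs and with 0 to 56.0 CPM over the libraries.

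Six2 and Pou3f4 were the exceptions in the meninges. Six2 had 0 UMIs there, which allows up to 1.15 CPM by the limit of 3 counts (1.42 by the exact Poisson interval), and 4 UMIs in all PF/F nuclei. Pou3f4 was at 2.30 CPM (0.845 to 5.01) in the meningeal nuclei, and its highest PF/F types were neural, with 15.8 CPM (12.9 to 19.2) in GABA interneuron progenitors and 10.2 (9.0 to 11.5) in astroglia. Astroglia also held 181 CPM of Eya1 and 134 of Prrx1. The 74 pericytes had 157 CPM of Prrx1, 32.3 of Prrx2 and 23.1 of Foxc1. Foxc1 was also at 29.5 CPM (18.0 to 45.6) in the 183 endothelial nuclei, on 20 UMIs. Twist2 was at 5.00 CPM (2.80 to 8.25) in 406 GABA interneurons, on 15 UMIs. That interval overlapped the one of Twist2 in the meningeal nuclei (4.39 to 11.4). The highest PF/F level of Pou3f4 was below that of PTB osteoclasts, 17.0 CPM. Those osteoclasts come from other libraries and are not a measure of free RNA in the PF/F. In differentiated granule neurons of the PF/F, Pou3f4 was at 1.62 CPM (1.32 to 1.96).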

How the data were processed

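Single-nucleus RNA-seq of the PTB and PF/F was used. Per the labels and methods, the authors made the deposited counts, raw UMIs per gene and barcode, with Cell Ranger 7.0.0 in intron mode on mm10. Their SoupX correction is not in these counts. No doublet removal is described. Cell types are the authors' deposited annotation.

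UMIs were summed per library and type (Python 3.11.15, numpy 2.4.6, scipy 1.17.1, pandas 2.3.3, matplotlib 3.10.9). Coordinates are from GENCODE vM21 (99.6% of 32285 features matched). Genotypes were compared with edgeR 4.0.16 in R 4.3.3 (filterByExpr, TMM, quasi-likelihood test, no batch term, Benjamini-Hochberg adjustment over all genes tested), on 4 libraries. DESeq2 1.42.0 was an alternative, as were RLE factors, no filter, nuclei with at least 2000 genes, nuclei without the top 8% by UMIs, fixed type composition, the replicate block and leaving out each library. Both tests were run first on simulated counts. SE is the log2 change over the square root of F.

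Libraries with the same number are 1 batch per the methods. As a check of the pairing, deviations of same-numbered libraries from their group means correlated at 0.469 over all annotated nuclei, 0.475 in the CTs, 0.438 in the CPs and 0.365 in osteoblasts. Nothing says that pools in a group share no litter, so p-values measure the spread between these libraries.

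Members and lists were chosen with earlier results of these data known. The genes named are the 9 members, Tbx1, the 3 most abundant of each partner list, any called partner and the 3 most like each member. The neuron, globin and sex-linked genes are markers, and others are said to be named after their values were seen.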

Additional observations from a re-analysis of the deposited data

Results flagged for a closer look

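Pou3f4 went opposite ways in 2 pairs of classes. In the CTs it was lower in Tbx1+/- in both batches (differences in log2 CPM of -0.23 and -0.15) and in osteoblasts higher in both (0.07 and 0.05), and the mean differences of the classes lay -0.2449 apart. In the CPs it was lower in both batches (-0.10 and -0.02), which lay -0.1163 from osteoblasts. With the CT types weighted alike in every library, Pou3f4 in the CTs was at 23.4 and 20.4 CPM in WT and 20.7 and 22.3 in Tbx1+/-, so that it was higher in batch 2 and the log2 change was -0.02 in place of -0.19. The opposite direction in the CTs thus did not hold under that weighting. Neither difference between classes was tested, and Pou3f4 in the CTs (16.9 to 24 CPM by type) was near its osteoclast level of 17.0 CPM.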

How the results depend on the processing

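Call counts were 0 in all 8 comparisons and moved under some settings. With no filter on low counts 1 gene was called in the CTs, 10 in matured chondrocytes, 17 in the hypertrophic type and 9 in matured osteoblasts. With the replicate block, which pairs the libraries of a batch, 24 genes were called in the CTs, 18 in matured chondrocytes, 4 in matured osteoblasts and 3 in osteoclasts, and 0 in the other 4 comparisons. Leaving out 1 library gave 6 to 27 calls in matured chondrocytes, 0 to 2 in the hypertrophic type, 0 to 33 in osteoblasts, 1 to 24 in matured osteoblasts and 0 to 206 in osteoclasts, where the spread of the group left with 1 library is taken from the other genotype. The 206 came without the WT library of batch 1, and the 33 and 24 without that of batch 2. None of the 9 genes was called under any of 10 settings in the 8 comparisons. Of the partner genes, Dach1 was called lower in matured chondrocytes with the block (log2 change -2.17, edgeR adjusted p = 2.9e-07), with no filter (-1.83) and without the WT library of batch 1 (-2.51) or the Tbx1+/- library of batch 2 (-2.76), and in osteoclasts without the WT library of batch 1 (-1.36), while the main fit gave an adjusted p of 1.00 in both. The cause was not tested.

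Of 387 alternative values of the 36 log2 changes of the 9 genes, 327 kept their direction and 60 reversed, in 31 of the 36, and the lowest adjusted p was 0.848. Fixed type composition gave 0.053 for Eya1 and 0.051 for Twist2 over all annotated nuclei, and fixing it within a class, added after the data were seen, gave Twist1 0.092 and Prrx2 0.072 in the CTs and Twist2 0.0053 and Prrx2 -0.0076 in the CPs. Nuclei with at least 2000 genes gave Pou3f4 0.0034 over all annotated nuclei, Twist2 -0.0064 in the CTs, Six2 -0.0058, Twist2 0.013 and Foxc2 -0.013 in the CPs and Foxc2 -0.14 in osteoblasts. Without the 8% of nuclei with most UMIs, Prrx2 was at -0.032 in the CPs, and Eya1 at 0.12, Prrx1 at 0.034 and Prrx2 at 0.016 in osteoblasts. The other reversals came from leaving out 1 library. Over all annotated nuclei the ranges were Six2 -0.078 to 0.19, Twist1 -0.051 to 0.22, Twist2 -0.39 to 0.020, Prrx1 -0.32 to 0.11, Foxc1 -0.030 to 0.28, Foxc2 -0.20 to 0.14 and Pou3f4 -0.26 to 0.14. In the CTs the ranges were Eya1 -0.18 to 0.19, Twist1 -0.26 to 0.12, Twist2 -0.36 to 0.34, Prrx1 -0.61 to 0.049, Prrx2 -0.15 to 0.00062 and Foxc2 -0.31 to 0.62. In the CPs the ranges were Six2 -0.19 to 0.21, Eya1 -0.035 to 0.17, Twist1 -0.16 to 0.27, Twist2 -0.19 to 0.12, Prrx1 -0.091 to 0.17, Prrx2 -0.19 to 0.23, Foxc1 -0.037 to 0.24, Foxc2 -0.17 to 0.17 and Pou3f4 -0.30 to 0.15. In osteoblasts the ranges were Six2 -0.32 to 0.017, Eya1 -0.16 to 0.017, Twist2 -0.066 to 0.54, Prrx1 -0.13 to 0.082, Foxc1 -0.043 to 0.45, Foxc2 -0.033 to 0.093 and Pou3f4 -0.22 to 0.28.

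The tally of highest types, 6 in CTs and 3 in CPs, was 5 to 6 and 3 to 4 when 1 library was left out. Six2 moved from CT3 to CP3 without the Tbx1+/- library of batch 1, Foxc1 from CT2 to CP3 without the WT library of batch 2, and Twist2 from CP4 to CP3 without the WT library of batch 1. Twist1 moved from CT1 to osteoblasts without the Tbx1+/- library of batch 2, so that 0 to 1 genes had their highest level in an osteoblast, hypertrophic or chondrocyte type. The level of Twist2 in CP4 was 43.9 CPM without the top 8% of nuclei. Depth limited Six2 (236 to 335 UMIs a library), Twist2 (331 to 546) and Foxc2 (494 to 601) most, and free RNA, still in the counts, limits every low level.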
